A study of Danio rerio with 2 samples.

Results

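The endoplasmic reticulum chaperones examined here are 10 zebrafish genes, hspa5, hsp90b1, serpinh1b, pdia3, pdia4, pdia6, canx, dnajb11, hyou1 and xbp1. They were found by the RefSeq accession of each array probe, and all 10 were among the 12900 genes named on the array, with 33 of its 43603 probes. The comparison was a pool of trained wild-type larvae against a pool of untrained control larvae, both from a cross of Wageningen and Tubingen wild types and both sampled whole at 10 days after fertilisation. Trained fish swam daily from day 5 to day 10 in sessions of 3 hours and were frozen at the end of the day. RNA of 10 fish made up each pool. Each of the 2 arrays held both pools, with trained in Cy5 and control in Cy3 on array 1 and the dyes exchanged on array 2. With 1 pool per condition there was no biological replicate, so no test across fish was possible, and the values describe these pools.

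Secreted and membrane proteins fold in the endoplasmic reticulum. Hsp70 and Hsp90 chaperones bind unfolded chains there, protein disulphide isomerases form and rearrange disulphide bonds, and lectin chaperones hold glycoproteins until they are folded. When unfolded protein accumulates, the unfolded protein response raises transcription of these chaperones through factors such as Xbp1, Atf6 and Atf4. In a whole larva the cells with a large secretory load include those of the pancreas, the liver, cartilage, bone and notochord sheath.

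In the trained pool 6 of the 10 genes were lower than in the control pool on both arrays, 1 was higher on both, and 3 had opposite signs on the arrays. The 10 genes were chosen with earlier results of these data known. Shares of all genes beside their counts thus give a scale and no independent support. With each array centred on its median in place of loess, hspa5, serpinh1b and pdia6 were the 3 lower on both arrays, beside 12.6% of all genes, and the median of all measured genes was then -0.08 on array 1 and 0.18 on array 2. Relative to that median 7 of the 10 were lower on both arrays, beside 20.9% of all genes, by an alternative added after the values were seen. Over all 11121 measured genes 22.1% were lower on both arrays and 24.3% were higher on both. The median log2 ratio of trained over control was -0.17 for the 10 genes, with -0.24 on array 1 and -0.12 on array 2, and it was -0.0027 for all measured genes. The differences were small. None of the 10 genes was at least 1.2-fold lower on both arrays, a size that 1.35% of all measured genes reached, and none was at least 1.2-fold higher on both, which 3.74% reached. The shares past 1.5-fold were 0.054% lower and 0.638% higher, with no member among them. At 1.1-fold, 3 of the 10 were lower on both arrays, namely hspa5, serpinh1b and pdia6, against 6.13% of all genes.

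A probe was taken as measured when its signal stood well above background in both channels of both arrays, and the brightest such probe stands for its gene. All 33 probes of the 10 genes were measured, so none was lost to the filter on dim probes. Over all spots, the share well above background was 71.3% to 84.2% by channel. The number of arrays limits the technical precision, and the single pool per condition limits any statement on training. The ± beside a mean log2 ratio is the distance of either array from that mean, which holds the dye effect and array noise but no spread between fish. As a further scale of technical error, probes of the same gene had a standard deviation of 0.12 in mean log2 ratio over 6037 genes, and spots of the same probe 0.08 over 20 probes. Intensities are given after background correction and normalisation within each array, so the 2 pools can be set side by side on an array, and levels of different genes cannot be compared. In RNA of whole larvae, fewer cells of a type and less RNA per cell cannot be told apart.

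The dye orientation rests on the sample titles and channel labels, since the study's design text gives the same orientation for both arrays. Across 30886 measured probes Pearson's r between the arrays was -0.04 for trained over control, and 0.11 under the deposited ratios, as a description across probes that are not independent. Over the 10 members r was 0.04. Of all 11121 measured genes 5957 had opposite signs on the arrays. Given this, a gene whose arrays differ in sign has no direction here. Nor does the same sign on both arrays by itself establish a direction.

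The Hsp70 of the endoplasmic reticulum, hspa5 (BiP), had the lowest ratio of the 10 genes. Its intensity was 26643 on array 1 and 28865 on array 2 in the trained pool, against 40165 and 33781 in the control pool. Both trained values lay below both control values. The log2 ratio was -0.59 on array 1 and -0.23 on array 2, with a mean of -0.41 ± 0.18, or 1.33-fold lower. This placed hspa5 at rank 101 from the lowest of 11121 genes. Of its 6 measured probes 5 were lower on both arrays and 1 had opposite signs, and the probe means ran from -0.43 to -0.17.

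The other Hsp70 machine genes stood nearer to 0. The co-chaperone gene dnajb11 (ERdj3), whose product delivers unfolded chains to BiP, had intensities of 2475 and 1981 in the trained pool, against 2602 and 2305 in the control pool. Trained was lower on each array, though the values of the pools overlapped across arrays. Its log2 ratio was -0.07 on array 1 and -0.22 on array 2, with a mean of -0.15 ± 0.07. Of its 6 probes 5 were lower on both arrays, and the means ran from -0.33 to -0.04, so the brightest probe stood closer to 0 than the median probe at -0.25. The large Hsp70 relative hyou1 (Grp170), a nucleotide exchange factor of BiP, had intensities of 1318 and 905 in the trained pool, against 1249.6 and 1009 in the control pool. Its arrays were opposite in sign, at 0.08 and -0.16, and its 3 probes disagreed, with means of -0.29, -0.04 and 0.05. The probe at -0.29 was lower on both arrays, at -0.32 and -0.26, and the others had opposite signs.

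The Hsp90 of the endoplasmic reticulum, hsp90b1 (Grp94), which folds a limited set of secreted and cell surface proteins, had intensities of 20462 and 16997 in the trained pool, against 23829 and 16949 in the control pool. Trained was lower on array 1 and level with control on array 2, with log2 ratios of -0.22 and 0.00. The mean was -0.11 ± 0.11, within the difference between the arrays. Its other probe was lower on both arrays, at -0.01 and -0.41, but nearly all of its difference came from array 2.

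**Figure D1:**
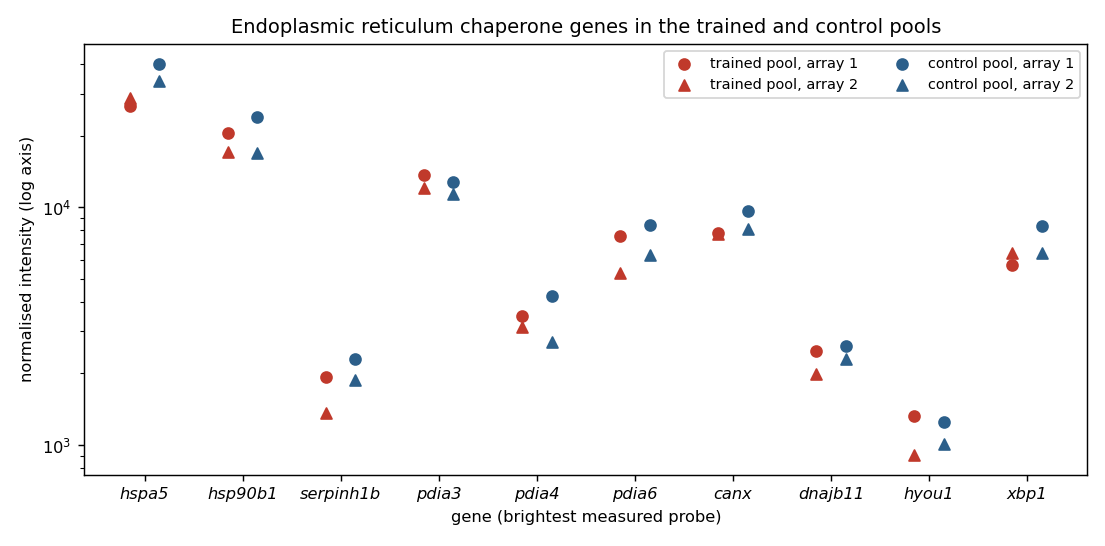
Normalised intensity (log axis) of the brightest measured probe of each of the 10 genes, in the trained pool (red, left) and the control pool (blue, right), on array 1 (circles) and array 2 (triangles). Both trained values lie below both control values for hspa5, canx and xbp1, and heights of different genes are not comparable.

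Both trained intensities lay below both control intensities for 3 of the 10 genes, hspa5, canx and xbp1, against 14.6% of all measured genes. No member had both trained values above both control values, which held for 10.9% of all genes. The arrays were not scaled to each other, so differences in brightness between the arrays enter this count.

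The collagen chaperone serpinh1b (Hsp47), which binds procollagen triple helices in the endoplasmic reticulum, had the next lowest ratio. Its intensity was 1931 on array 1 and 1362.5 on array 2 in the trained pool, against 2298 and 1880.0 in the control pool. Trained was lower on each array, and the pools overlapped only across arrays. The log2 ratio was -0.25 on array 1 and -0.46 on array 2, with a mean of -0.36 ± 0.11, or 1.28-fold lower, at rank 191 from the lowest of 11121 genes. Its 3 probes had means of -0.36, -0.22 and -0.22, and all were lower on both arrays. Of the 10 genes no other with more than 1 probe had all of them lower on both arrays. Both hspa5 and dnajb11, with more probes, had 5 of 6 lower on both arrays. The share of all genes with every probe lower on both arrays was not computed.

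By their brightest probes the 3 protein disulphide isomerase genes had no common sign on the arrays, and no difference in direction between them is established. Of these, pdia6 (P5) had intensities of 7570.0 and 5289 in the trained pool, against 8372 and 6316 in the control pool. It was lower on each array, at -0.15 and -0.26, with a mean of -0.20 ± 0.06. All 3 of its probe means were below 0, from -0.20 to -0.09, and 2 of the 3 were lower on both arrays. For pdia4 (ERp72), a further isomerase, the intensities were 3477 and 3130.0 in the trained pool, against 4248 and 2711 in the control pool. Its brightest probe was opposite on the arrays, at -0.29 and 0.21, with a mean of -0.04 ± 0.25. The other 2 probes of pdia4 were lower on both arrays, with means of -0.19 and -0.28. Of the 10 genes, pdia3 (ERp57), the isomerase that works with the lectin chaperones on glycoproteins, was the 1 gene higher on both arrays. Its intensity was 13607 and 12066 in the trained pool, against 12751.5 and 11356 in the control pool. The log2 ratios were 0.09 on both arrays, with a mean of 0.09 from a single probe. This mean is smaller in size than the standard deviation between probes of a gene. The same held for 4 of the 10 genes in all, namely pdia3, hsp90b1, pdia4 and hyou1. In the authors' deposited ratios the same pdia3 probe stood at 0.37 on array 1 and 0.03 on array 2, with a mean of 0.20.

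The membrane-bound lectin chaperone canx (calnexin) had intensities of 7803 and 7706 in the trained pool, against 9664.5 and 8121 in the control pool. Its brightest probe was lower on each array, at -0.31 and -0.08, with a mean of -0.19 ± 0.12. In the authors' deposited ratios the same canx probe was opposite on the arrays, at -0.371 and 0.125 on the log2 scale. Across the 8 processing settings run on both arrays, canx was lower on both arrays in 4. The other 2 probes of canx were opposite on the arrays. They stood at -0.74 and -0.41 on array 1 and at 0.31 and 0.37 on array 2, with means of -0.21 and -0.02. The difference for canx was thus carried by array 1, and its direction is not settled by its probes.

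The transcription factor gene xbp1, whose messenger RNA is spliced by Ire1 to give the active factor of the unfolded protein response, had intensities of 5699.8 and 6429.7 in the trained pool, against 8305.5 and 6445 in the control pool. Trained was lower on array 1 and almost equal to control on array 2, with log2 ratios of -0.54 and -0.0035 and a mean of -0.27 ± 0.27. It counts among the 6 genes lower on both arrays only by that small margin on array 2. In the authors' deposited ratios the same xbp1 probe stood at -0.14 and -0.10 on the log2 scale, with a mean of -0.12. On array 2 it stood at 0.0027 with no background correction and at 0.21 under median centring. Both the size of its difference and its sign on array 2 thus depend on the processing. The other 2 probes were opposite on the arrays, with means of -0.17 and -0.16. Where the probes lie relative to the spliced intron was not analysed here, so the values do not tell its spliced form apart.

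**Figure D2:**
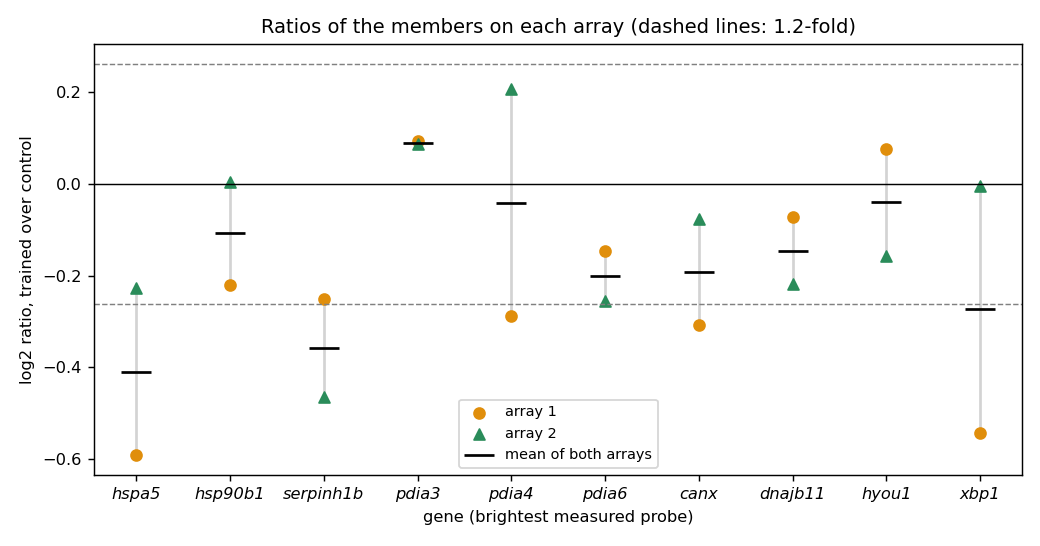
Log2 ratio of trained over control for the brightest measured probe of each of the 10 genes on array 1 (circles) and array 2 (triangles), with the mean of both (black bars) and dashed lines at 1.2-fold. Both arrays lie below 0 for 6 genes, above 0 for pdia3, and on opposite sides of 0 for hsp90b1, pdia4 and hyou1, and no gene has both arrays past a dashed line.

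Taking the arrays singly, 8 of the 10 genes were lower on array 1, against 50.3% of all measured genes, and 7 on array 2, against 47.4%. On the mean of both arrays 9 of the 10 were below 0, as were 50.7% of all genes. For hsp90b1, pdia4 and hyou1 that mean was smaller in size than the standard deviation between probes of a gene. Of the 33 probes 31 had a mean below 0, against 52.5% of all measured probes, and the other 2 were the pdia3 probe and 1 probe of hyou1. On both arrays 21 probes were lower, 1 was higher and 11 were opposite, while 23.2% of all measured probes were lower on both and 22.9% higher. Probes of a gene share its transcript, so the 33 probes are not 33 separate observations. They also belong to genes chosen with earlier results of these data known. The probe means ran from -0.43 to 0.09. For 8 of the 10 genes every probe had a mean below 0. The share of all genes for which this held was not computed, so this count has no comparison. At 1.1-fold 13 of the 33 probes were lower on both arrays, against 5.83% of all measured probes, and at 1.2-fold none was, against 1.18%. The brightest probes of the 10 genes were bright ones, at percentiles 67.3 to 97.4 of the measured genes. Of the 3345 genes in that range of brightness 24.2% were lower on both arrays, and their median ratio was -0.02.

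**Figure D3:**
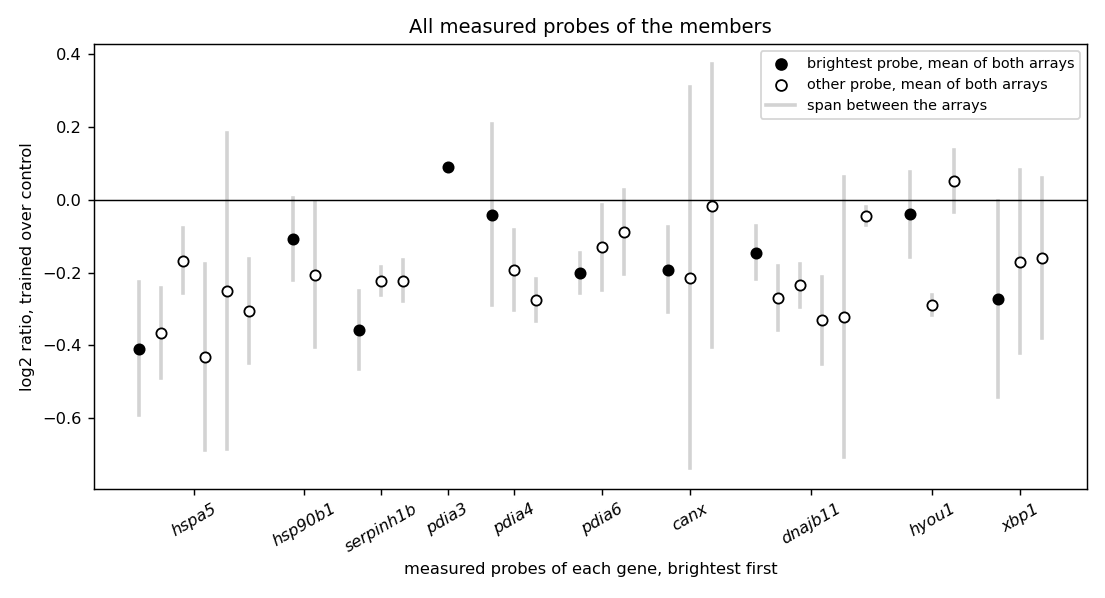
Log2 ratio of trained over control for all 33 measured probes, grouped by gene and ordered from brightest to dimmest within a gene. Circles are means of both arrays (filled for the brightest probe), grey bars span the arrays, and 31 of the 33 means lie below 0 although the spans of 11 probes cross it.

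The dye component, the mean of the Cy5 over Cy3 ratios of both arrays, ran from -0.52 to 0.38 over the 33 probes. Its lowest value was at a canx probe and its highest at a dnajb11 probe. This component is the part of the array ratios that changes sign with the dyes. As each dye orientation had a single array, it also holds array noise. It is larger than the mean ratio exactly where the arrays differ in sign, as for hsp90b1, pdia4 and hyou1. This held for 11 of the 33 probes, beside 53.9% of all measured probes. These are the same 11 probes counted above as opposite in sign, and no further observation. Over 11121 measured genes the standard deviation was 0.20 for the dye component and 0.19 for the mean ratio.

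**Figure D4:**
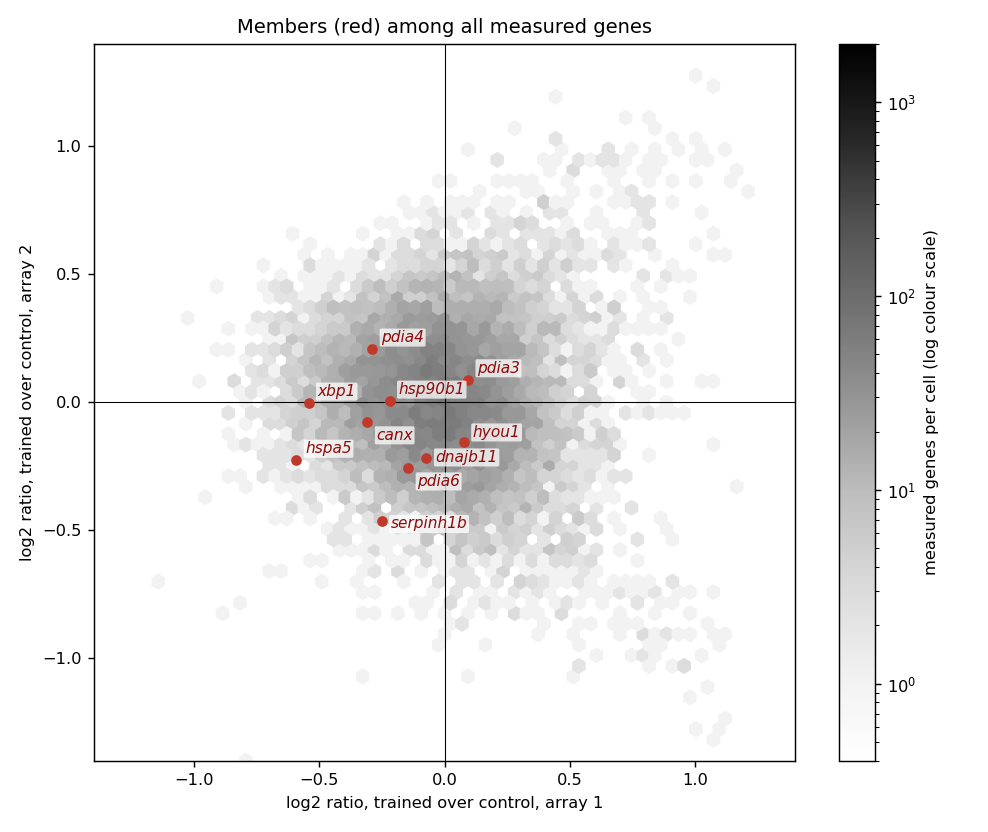
Log2 ratio of trained over control on array 1 (horizontal) against array 2 (vertical) for 11118 measured genes (grey, darker for more genes, 3 genes outside the axes) and for the 10 chaperone genes (red). The lower left field, lower on both arrays, holds 6 of the 10, hspa5 and serpinh1b among them.

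In the authors' deposited table the log10 ratios of these 10 probes, turned to trained over control, came with errors of 0.0614 to 0.0632 from the error model of the image software. By these deposited values hspa5 and serpinh1b were the 2 members lower by more than 1 error on both arrays, beside 3.76% of all measured genes. No member was lower by more than 2 errors on both, beside 0.378% of all genes. The deposited log10 ratios of hspa5 were -0.163 on array 1 and -0.069 on array 2, and those of serpinh1b were -0.078 and -0.122.

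Genes that act beside the 10 in the endoplasmic reticulum were read from 9 lists. Of 138 listed genes 107 were measured, of which 39 stood lower on each array, 12 stood higher and 56 differed in sign. Their median log2 ratio was -0.09. That is 36.4% lower on both arrays, beside 22.1% of all measured genes. At 1.2-fold on both arrays 8 of the 107 were lower, beside 1.35% of all measured genes, and 1 was higher, beside 3.74%. The lists were chosen with earlier results of these data known. The value given beside a gene in these lists is its mean log2 ratio of trained over control.

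The oligosaccharyltransferase, which adds sugar chains to nascent proteins, had 5 of 9 measured genes lower and 1 higher on each array, and its median was -0.18. Its subunit gene ddost stood at -0.39 and ostc at -0.34, while dad1 stood at 0.25. The 16 translocon and signal peptidase genes, which pass and trim chains entering the endoplasmic reticulum, had a median of -0.08, with 8 lower and 3 higher on both arrays. The paralogues of the Sec61 channel subunit went apart, with sec61a1b at -0.51 and sec61a1a at 0.38. Of the translocon-associated genes ssr1 stood at -0.41 and ssr3 at 0.37, and for sec61a1b, ssr1 and ssr3 another probe had the opposite sign. Near-identical paralogues can share signal on an array, so the values of sec61a1a and sec61a1b are uncertain.

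Among 15 further disulphide isomerase family and oxidase genes 5 stood lower on each array, 1 stood higher and 9 differed in sign. The isomerase genes txndc5 and tmx2b stood at -0.33 and -0.24, and tmx4 at 0.13, with another tmx4 probe of opposite sign. The list's array medians were 0.04 and -0.22, so it had no common direction on array 1. The 9 genes of the lectin cycle had a median of -0.15, with 3 lower and 1 higher on both arrays. The glucosyltransferase gene uggt1, which returns unfolded glycoproteins to the lectin chaperones, stood at -0.43, calr3a at -0.32 and the mannosidase gene man1b1b at 0.31.

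Partners of the Hsp70 chaperones and secreted products of the unfolded protein response had a median of -0.10 over 12 genes, with 5 lower and 2 higher on both arrays. The stress-induced secreted factor manf stood at -0.30 and the co-chaperone gene dnajc1 at -0.23, with another dnajc1 probe of opposite sign, while the co-chaperone genes dnajb9a and dnajc3a were higher on both arrays, at 0.23 and 0.22. The 7 prolyl isomerase genes had a median of -0.11, with 3 lower and none higher on both arrays, and fkbp7 and fkbp14 stood at -0.47 and -0.36. Both were past 1.2-fold on each array.

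The sensors and factors of the unfolded protein response showed no shared direction, with 4 of 15 lower and 1 higher on both arrays, 10 of differing sign and a median of -0.03. The factor gene atf4a stood at -0.39, with another probe at 0.04, and its target chac1 at -0.37. The protease gene mbtps1, whose product cleaves Atf6, stood at 0.15, with another probe at -0.19. Genes for degradation from the endoplasmic reticulum numbered 15, with 2 lower and 3 higher on both arrays and 10 of differing sign. Their median was -0.10, with array medians of -0.05 and 0.09. The ATPase gene vcp stood at -0.39 and os9 at -0.19, with another os9 probe at 0.06, while the ubiquitin-conjugating enzyme gene ube2j1 stood at 0.28 and edem1 at 0.17.

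Beside serpinh1b, 9 genes that modify collagen had a median of -0.20, with 4 lower and none higher on both arrays. The prolyl hydroxylase subunit gene p4ha2 stood at -0.46 and the lysyl hydroxylase gene plod1a at -0.20, though 2 of 3 other probes of plod1a were opposite in sign. The array medians of this list were -0.03 and -0.30, so its median came mostly from array 2. The 8 fibrillar collagen genes had a median of -0.08, with 3 lower and 1 higher on both arrays. Here col11a1a stood at -0.38, col1a2 at -0.15 and col1a1a at 0.06. Of the other probes of col1a1a 1 of 3 was opposite in sign, at -0.32, and of those of col11a1a 1 of 2 was, at 0.01.

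**Figure D5:**
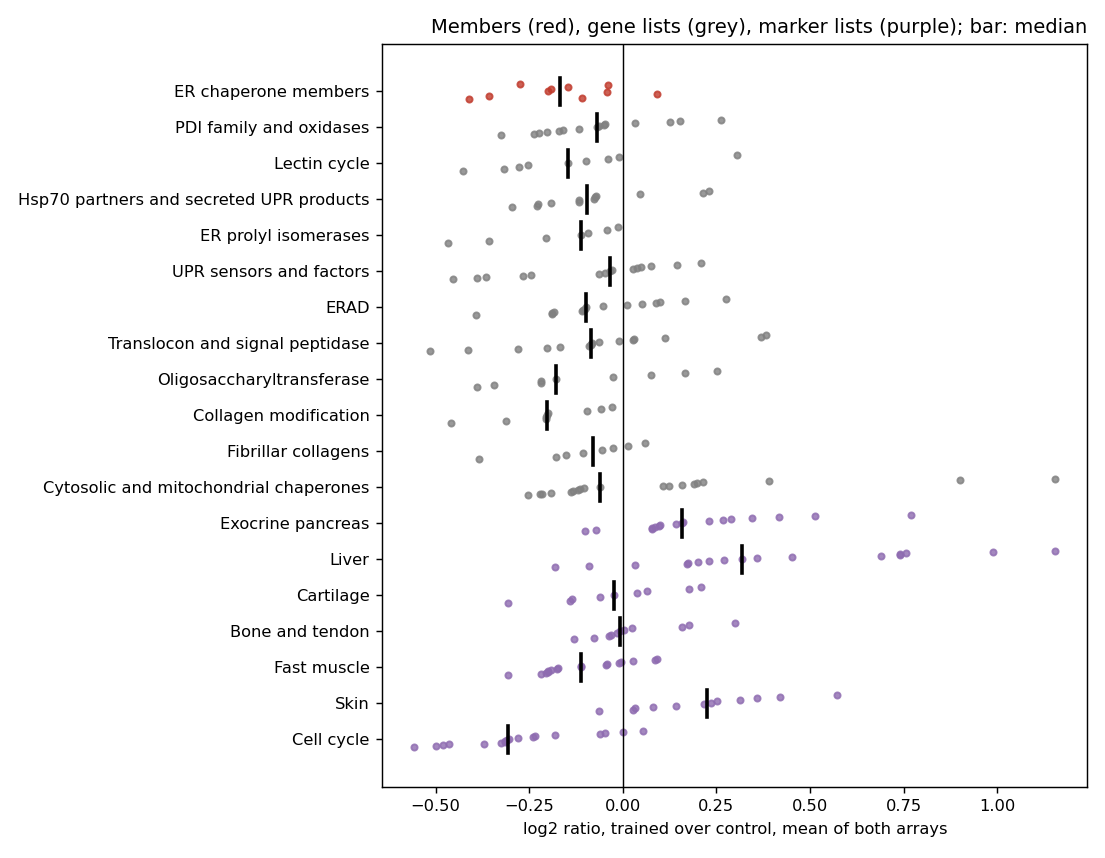
Mean log2 ratio of trained over control for each measured gene of the 10 chaperones (red), of 11 further gene lists (grey) and of 7 marker lists (purple), with black bars at the medians. The median of the chaperones is -0.17, the cell cycle markers lie lowest at -0.31 and the liver markers highest at 0.32.

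Outside the endoplasmic reticulum, 19 cytosolic and mitochondrial chaperone genes had a median of -0.06, with 6 lower and 7 higher on both arrays. Mean log2 ratios of 1.16 and 0.90 were found for the inducible cytosolic Hsp70 genes hsp70.3 and hsp70l, where hspa5 stood at -0.41. The other 2 probes of hsp70.3 stood at 0.53 and 1.06. Whether hsp70.3 and hsp70l share signal on the array was not examined. In the same list bag3 and hspa4a were lower, at -0.25 and -0.22. The difference between these groups of chaperones was not tested.

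Markers of tissues in the whole larva were set beside the 10 genes. Over all measured genes 22.1% were lower and 24.3% higher on both arrays. Exocrine pancreas and liver are tissues that secrete much protein. Of 17 pancreas markers 6 were higher on both arrays, 1 was lower and 10 differed in sign, so most had no direction, and the median was 0.16. Among them amy2a stood at 0.77, sycn.2 at 0.51 and cpa5 at -0.07, with another cpa5 probe at 0.04. Of 17 liver markers 11 were higher on both arrays, 2 lower and 4 of differing sign, with a median of 0.32. Here tdo2b stood at 1.16, ahsg1 at 0.99, cp at -0.18 and fga at -0.09, and all other probes of cp and fga were above 0, from 0.02 to 0.22. Of 18 cell cycle genes 13 were lower and 1 higher on both arrays, with a median of -0.31. Among them mcm5 stood at -0.56, ccna2 at -0.50 and aurkb at 0.06. The part of the cell cycle genes in the ratios of the chaperones was not tested. The 9 cartilage markers had a median of -0.02, with 4 lower and 1 higher on both arrays, where col9a1b stood at -0.31, matn1 at -0.14 and sox9a at 0.21. For col9a1b 3 of 4 other probes had the opposite sign, up to 0.10, and the other sox9a probe stood at -0.06. Bone and tendon markers had a median of -0.01 over 11 genes, with 1 lower and 2 higher on both arrays, phex at -0.08 with another probe at 0.16, ifitm5 at 0.30 and scxa at 0.18. Skin markers had a median of 0.23 over 12 genes, with 7 higher and 1 lower on both arrays. Here cyt1 stood at 0.57, ppl at 0.42 and col17a1a at -0.06. The other cyt1 probe was nearer to zero, at 0.09, as were the other 3 ppl probes, from 0.07 to 0.21. Of 17 fast muscle markers 14 were opposite on the arrays, with tnnt3a at -0.31 and actn3b at -0.20 and a median of -0.11. Markers of all these tissues were thus measured in RNA labelled as whole larva.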

How the data were processed

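RNA pools of whole larvae were compared on 2-colour Agilent arrays. The image software was Agilent Feature Extraction 10.5.1.1, per the submitters' processing notes. Per the file headers these hold median spot and background intensities, the deposited log10 ratio of Cy5 over Cy3 after background and dye correction by that software, its error, and other columns of deposited flags. The deposited series value table equals these log10 ratios with the sign of array 2 turned (tolerance 0.0001).

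New ratios were computed in R 4.3.3 with limma 3.58.1 from median intensities, by normexp with an offset of 50 and loess within each array, control and outlier spots at weight 0. The offset draws ratios of dim probes towards 0. The sign was turned where trained was in Cy3, spots of a probe and then the arrays were averaged, and 13 outlier spots were left out. No spot was saturated. Of 43603 probes, 30886 were measured and 25171 were named by unversioned accession through a RefSeq table of assembly GRCz12tu. Because its probes were designed on another build, coordinates are left out. Tables and plots used Python 3.11.15, numpy 2.4.6, pandas 2.3.3 and matplotlib 3.10.9.

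With 1 pool per condition a size rule replaced any test, set at 1.2-fold on each array in 1 direction, with no p-value. The procedure was tested on simulated arrays with a dye effect shared by both arrays. The known changes put into them were larger than the mean ratio of any member. Recovery of changes as small as those of the members was not tested. Members and lists were chosen with earlier results of these data known. Named genes are the 10 members and, per list, up to 2 highest and 2 lowest genes with the same sign on both arrays. Alternatives were an offset of 0, no background correction, the mean over probes, a looser filter, the value table, the deposited ratios, median centring of each array, each array alone and folds of 1.1 and 1.5. Subtracting the median of all genes was chosen after seeing the data.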

Additional observations from a re-analysis of the deposited data

How the results depend on the processing

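Across the 8 settings run on both arrays the median log2 ratio of the 10 chaperone genes ranged from -0.17 to -0.10, and that of the other genes of the endoplasmic reticulum from -0.10 to -0.03. The number of the 10 lower on both arrays was 3 under median centring, against 6 to 8 in the others, and the cause was not tested. In those others 21.8% to 26.0% of all genes were lower on both arrays. The count of 8 came with the mean over probes, beside 24.4%, and the deposited ratios gave 7, beside 26.0%. With no background correction the count was 6, beside 22.1%, with hsp90b1 in place of xbp1. Median centring left the median of all measured genes at -0.08 on array 1 and 0.18 on array 2, and 12.6% of them were then lower on both arrays. With that median subtracted on each array, an alternative chosen after seeing the data, 7 of the 10 were lower on both under median centring, beside 20.9% of all genes, and 2 by at least 1.2-fold, beside 1.08%. Only hspa5, serpinh1b and pdia6 were lower on both arrays in all 8 settings. The share of all genes lower on both arrays in all 8 settings was not computed, so this count has no comparison. The number at least 1.2-fold lower on both was 1 with no background correction (1.35% of all genes), 1 with the mean over probes (0.872%) and 3 at 1.1-fold (6.13%). Single arrays gave medians of -0.24 to -0.12, 7 to 8 genes lower and 1 to 4 at least 1.2-fold lower, where 13.3% of all genes were on array 2 (1 member) and 15.6% on array 1 (4 members), and for the other genes medians of -0.12 to -0.07. Of 70 values of single genes under the 7 alternatives on both arrays 61 were below 0. For this count too no share of all genes was computed. Both pdia4 and hyou1 changed sign under median centring, to 0.03 and 0.02. Under the deposited ratios xbp1 moved to -0.12, pdia4 to -0.17 and hyou1 to -0.20, and pdia4 was at -0.17 with the mean over probes; the cause was not tested. The deposited ratios and the value table are the same values. The looser filter left each of the 10 genes at its main values, since all their probes had already passed the stricter one. The 8 settings and the counts over them thus include these repeats. No paired analysis was possible because both arrays hold the same 2 pools.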
